A study of Mus musculus with 9 samples.

Results

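Glycolysis and the pentose phosphate pathway were examined through 39 genes, all of which had a row among the 24391 genes of the count table. They were chosen by symbol from textbook roles in glucose uptake, glycolysis, lactate handling, pyruvate entry and the pentose phosphate pathway, and the rule uses no measured value, although earlier results of these data were known when the list was drawn up. Of the 39, 37 passed the filter on low counts and were tested. The counts came from RNA-seq of bone marrow cells of C57BL/6 mice aged 6-8 weeks with leukaemia from the AML1-ETO9a murine model, in which a shortened AML1-ETO fusion protein drives the disease. Cells had been sorted by 2 surface proteins, CD43 (a leukocyte sialoglycoprotein) and c-Kit (the stem cell factor receptor), into CD43++ckit+, CD43+ckit- and CD43-ckit- populations with 3 libraries each. All 3 populations were from leukaemic marrow, and no marrow without the fusion was among the 9 libraries. The labels do not say how the fusion was introduced, whether animals were pooled, or whether libraries 1, 2 and 3 came from separate animals, and p-values therefore reflect only the spread of these samples, which may be technical.

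Glycolysis splits glucose into pyruvate in the cytosol and yields ATP and NADH, and lactate dehydrogenase and the monocarboxylate transporters dispose of the pyruvate as lactate. The pentose phosphate pathway takes glucose 6-phosphate aside to make NADPH and ribose 5-phosphate. Most steps have several isozymes, and blood cells differ in which they use. Mature red cells rely on glycolysis alone for ATP, and their precursors express the glucose carrier Slc2a1. Red cells also divert a bisphosphoglycerate of glycolysis to 2,3-bisphosphoglycerate through Bpgm.

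Total counts ranged from 17966197 to 31781746 per library, and levels below are CPM, the reads of a gene scaled to library size, after TMM correction. Kit, which encodes c-Kit, was highest in the cells sorted as ckit+, at 146 to 176 CPM in the CD43++ckit+ libraries, 7.80 to 21.03 CPM in those of CD43+ckit- and 18.9 to 42.1 CPM in those of CD43-ckit-. Spn, which encodes CD43, was at 432 to 555, 137 to 232 and 71.7 to 180.1 CPM in the same order, so the ranges of the last 2 populations overlapped. Markers of other cells were present. The summed level of 9 erythroid markers was 1922 to 2643 CPM in the CD43++ckit+ libraries, 14686 to 17486 CPM in those of CD43+ckit- and 30229 to 47728 CPM in those of CD43-ckit-, and none of the 9 was under 1 CPM in any library. All 9 were called lower in CD43++ckit+ than in either other population, while between CD43+ckit- and CD43-ckit- 7 of 9 were not called and the median log2 difference was -0.33. The sum of 10 neutrophil markers was 93.7 to 5977, 481 to 3556 and 3797 to 16848 CPM, with CD43++ckit+ library 3 far above the other CD43++ckit+ libraries. Summed monocyte and macrophage markers were at 19.7 to 106, 22.5 to 48.6 and 172 to 181 CPM, B-lineage markers at 3.67 to 25.4, 14.9 to 43.8 and 84.8 to 223 CPM, and T and NK markers at 1.04 to 18.4, 3.60 to 6.74 and 18.0 to 36.8 CPM. Of these lists, CD43-ckit- had 3 of 10, 8 of 8 and 6 of 8 genes called higher against CD43++ckit+, beside 27.7% of all genes. Against CD43+ckit- it had 8 of 10, 6 of 8 and 2 of 8, beside 20.9%. The 3 of 10 monocyte and macrophage markers and the 2 of 8 T and NK markers lay near these shares. No neutrophil marker was called in any of the 3 comparisons. Summed mast cell and basophil markers were at 1132 to 2180, 759 to 838 and 1246 to 1554 CPM in the same order of populations. Megakaryocyte markers were at 7.96 to 18.2, 37.9 to 43.8 and 59.2 to 75.1 CPM. Progenitor and blast markers, Kit among them, were at 480 to 1401, 163 to 274 and 1011 to 1649 CPM. Library 3 of CD43++ckit+ and libraries 1 of CD43+ckit- and CD43-ckit- correlated least with the rest of their populations (mean r = 0.955, 0.979 and 0.974). In bulk samples fewer cells of a type and less RNA per cell cannot be told apart.

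Scaling matters for every direction that involves CD43-ckit-. TMM factors ran from 0.589 to 1.41, and the lowest 3 were those of CD43-ckit-. With library totals in place of TMM the median log2 difference of all genes went from 0.01 to 0.28 for CD43++ckit+ versus CD43+ckit-. It went from 0.19 to 1.11 for CD43++ckit+ versus CD43-ckit- and from 0.13 to 0.78 for CD43+ckit- versus CD43-ckit-. Among all called genes the share that was higher in the first population then went from 49.4% to 67.0%, from 58.9% to 82.2% and from 59.7% to 85.2%. With RLE size factors the last 2 shares were 49.5% and 45.8%. With library totals, single members lost, gained or turned calls, and those values stand beside the genes.

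The 39 genes together took 1.08% to 1.13% of all counts in the CD43++ckit+ libraries, 0.81% to 1.08% in those of CD43+ckit- and 2.19% to 2.38% in those of CD43-ckit-. Most of the excess in CD43-ckit- lay in a pair of genes. Slc2a1 and Bpgm held 62.3% to 72.6% of the summed CPM of the 39 genes there, with 14.4% to 22.2% for CD43+ckit- and 1.45% to 2.66% for CD43++ckit+. The other 37 genes summed to 7809 to 8833 CPM in the CD43++ckit+ libraries, 6580 to 7684 CPM in those of CD43+ckit- and 10245 to 10844 CPM in those of CD43-ckit-. On this scale the ranges did not overlap and CD43+ckit- had the lowest sum. As a share of all counts, without TMM, the same 37 genes took 1.07% to 1.11%, 0.694% to 0.837% and 0.604% to 0.827%, so the last 2 populations overlapped and both lay below CD43++ckit+.

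The genes did not move as one block. Called below means an adjusted p under 0.05 in edgeR's quasi-likelihood test, by the Benjamini-Hochberg method over all 12573 genes tested. In CD43++ckit+ versus CD43+ckit-, 13 of the 37 were called higher and 7 lower, beside 19.7% of all genes higher and 20.1% lower. Against CD43-ckit-, CD43++ckit+ had 15 higher and 12 lower, beside 39.7% and 27.7% of all genes. CD43+ckit- versus CD43-ckit- gave 7 higher and 14 lower, beside 31.0% and 20.9%. With library totals the 3 pairs of counts were 15 and 7, 22 and 7, and 11 and 7. Without the 3 least correlated libraries they were 15 and 12, 18 and 14, and 8 and 22. The joint test of all 3 populations called 32 of 37, beside 74.8% of all genes. The median log2 difference of the 37 was 0.12, 0.32 and -0.51 in the 3 comparisons, and that of all genes was 0.01, 0.19 and 0.13. With library totals the members' median stood 0.10, 0.09 and -0.64 from that of all genes.

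Of the 32 jointly called genes, 16 (50%) had their highest mean in CD43++ckit+, 4 (12.5%) in CD43+ckit- and 12 (37.5%) in CD43-ckit-. Over all jointly called genes these shares were 43.4%, 22.5% and 34.1%. The lowest mean lay in CD43+ckit- for 14 of the 32 (43.8%), beside 15.6% of all jointly called genes. With library totals that count was 8 (25.0%), beside 12.9%. On that scale 16 of the 32 (50%) were lowest in CD43-ckit-, beside 64.3% of all jointly called genes.

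**Figure D1:**
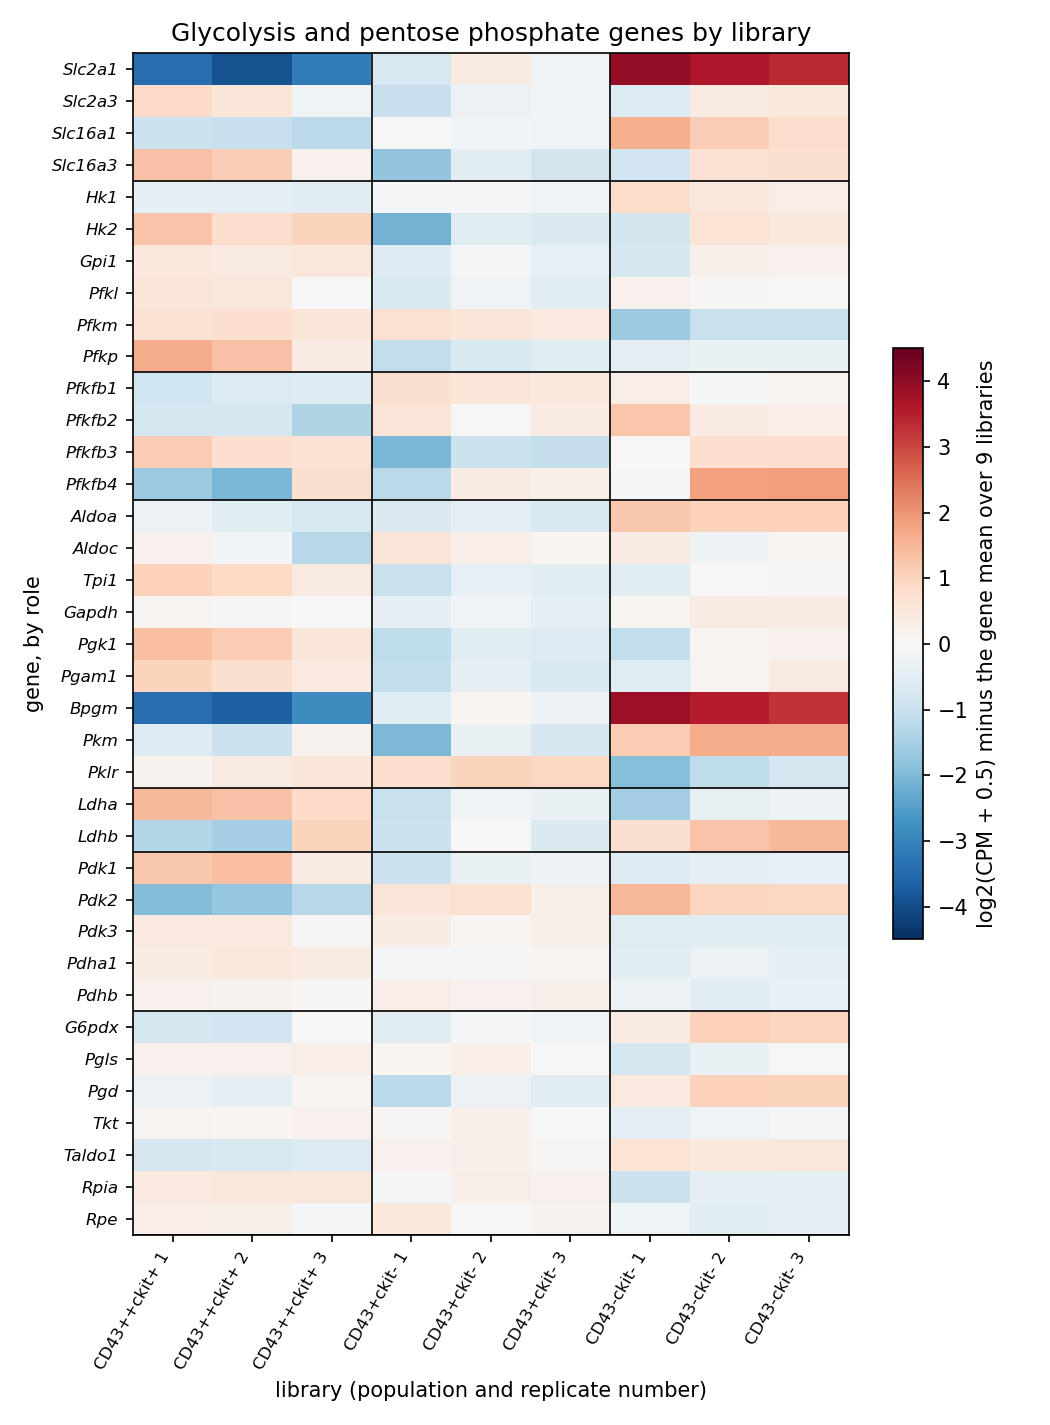
Level of each of the 37 tested genes (rows, by role, separated by lines) in each of the 9 libraries (columns), as log2(CPM + 0.5) minus the gene's mean over the 9 libraries. Slc2a1 and Bpgm ran from deep blue in CD43++ckit+ to deep red in CD43-ckit-, while Pfkp, Tpi1, Pgk1 and Ldha were red in CD43++ckit+.

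Of the 4 transporters, Slc2a1 and Slc16a1 were lowest in CD43++ckit+ and highest in CD43-ckit-. Slc2a1 encodes GLUT1, a glucose carrier of erythroid precursors and many dividing cells. Its level was 112, 79.1 and 136 CPM in the CD43++ckit+ libraries, 723, 1601 and 1081 CPM in those of CD43+ckit- and 18808, 14991 and 12280.4 CPM in those of CD43-ckit-. No library of one population reached the range of another. The log2 difference of CD43++ckit+ was -3.38 ± 0.34 (SE) from CD43+ckit- (adjusted p = 0.000342) and -7.14 ± 0.41 from CD43-ckit- (2.22e-06). That of CD43+ckit- from CD43-ckit- was -3.76 ± 0.35 (8.67e-05). As a fold, the level in CD43-ckit- was 141 times that in CD43++ckit+. Per kilobase of annotated exon, Slc2a1 ranked 14 of the genes in CD43++ckit+ and first in the other two populations. The erythroid marker sum given above stood in the same order over the populations, although most of its genes were not called between CD43+ckit- and CD43-ckit-. Its part in the Slc2a1 difference was not tested.

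Slc2a3 encodes GLUT3, a high-affinity glucose carrier. It was at 199, 158 and 94.6 CPM in the CD43++ckit+ libraries, 52.6, 90.2 and 93.9 CPM in those of CD43+ckit- and 70.9, 144 and 152 CPM in those of CD43-ckit-. CD43++ckit+ library 3 was the lowest of its population and fell inside the CD43-ckit- range. Slc2a3 passed the threshold in none of the 3 comparisons (log2 differences 0.93 ± 0.36, 0.30 ± 0.36 and -0.63 ± 0.36, adjusted p = 0.0703, 0.472 and 0.162). Without CD43++ckit+ library 3 the first difference was 1.18, with adjusted p = 0.0211. With library totals the first 2 differences were 1.17 (0.0468) and 1.14 (0.0297), both called.

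Slc16a1 encodes MCT1, which moves lactate and pyruvate in either direction. It was at 122, 116 and 103 CPM in the CD43++ckit+ libraries, 237, 218 and 208 CPM in those of CD43+ckit- and 713, 516 and 405 CPM in those of CD43-ckit-. The populations stood in 3 steps without overlap, at log2 differences of -0.96 ± 0.19, -2.26 ± 0.20 and -1.30 ± 0.20 (adjusted p = 0.00449, 2.39e-05 and 0.000829). Slc16a3 encodes MCT4, the lactate exporter of strongly glycolytic cells. Its levels were 137, 118 and 62.1 CPM in the CD43++ckit+ libraries, 15.5, 39.5 and 30.6 CPM in those of CD43+ckit- and 30.0, 85.9 and 90.3 CPM in those of CD43-ckit-. It was higher in CD43++ckit+ cells than in CD43+ckit- cells by 1.89 ± 0.50 log2 units (adjusted p = 0.0157), and this call was lost without CD43++ckit+ library 1 (0.0535) or without CD43+ckit- library 1 (0.0549). Its other 2 differences, 0.62 ± 0.48 and -1.27 ± 0.49, did not pass (adjusted p = 0.27 and 0.0559), and the first of them was 1.45 with library totals (0.0319).

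**Figure D2:**
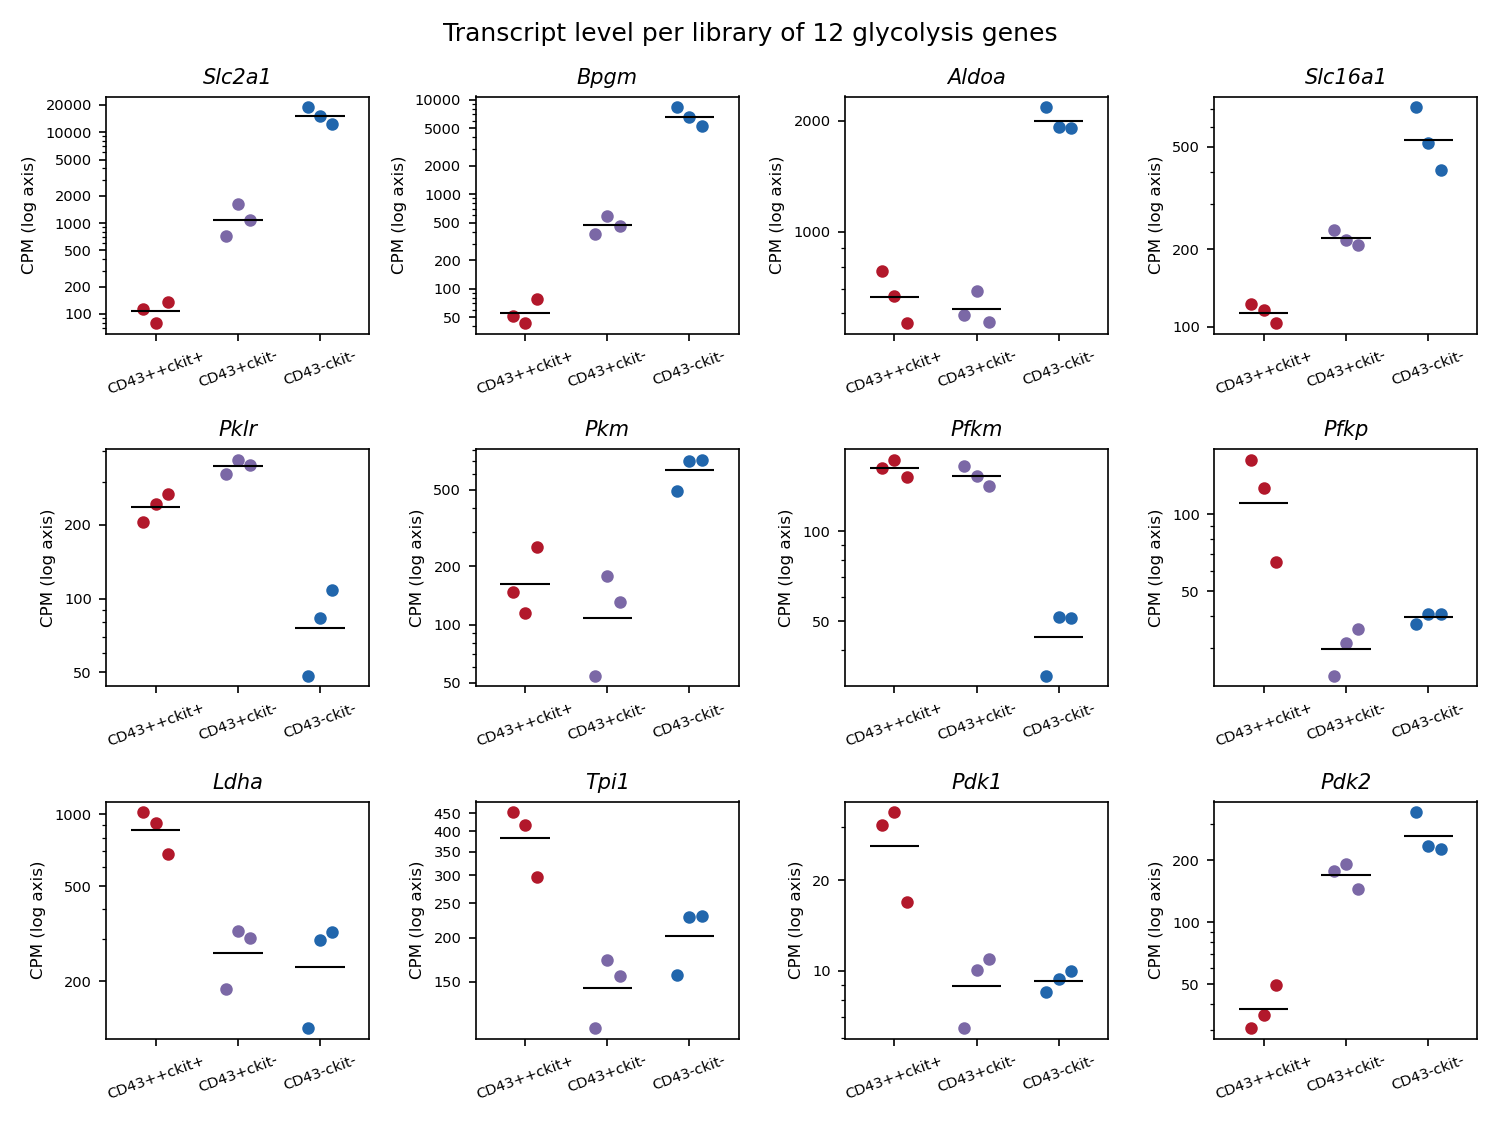
CPM (TMM-scaled, log axis, scale differing between panels) of 12 genes in each library. Points are libraries 1, 2 and 3 from left to right and bars are geometric means, and Slc2a1 and Bpgm rose over the 3 populations while Pfkm and Pklr were low in CD43-ckit- and Ldha, Tpi1 and Pdk1 were high in CD43++ckit+.

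The first steps, from glucose to fructose 1,6-bisphosphate, were represented by 6 genes. In CD43++ckit+ versus CD43+ckit-, 4 of them were called higher (Hk2, Gpi1, Pfkl and Pfkp), beside 19.7% of all genes. The hexokinases trap glucose as glucose 6-phosphate. Hk1, the form of most tissues and of red cells, was at 664, 680.1 and 652 CPM in the CD43++ckit+ libraries, 885, 877 and 806 CPM in those of CD43+ckit- and 1609, 1289 and 1124 CPM in those of CD43-ckit-. These ranges did not overlap, and CD43++ckit+ was called below CD43-ckit- (-1.01 ± 0.15, adjusted p = 0.000338) but not below CD43+ckit- (-0.36 ± 0.15, 0.0794). CD43+ckit- was also called below CD43-ckit- (-0.65 ± 0.15, 0.00624), a difference that turned to 0.0204 with library totals (adjusted p = 0.852), under which the larger one was -0.08 (0.474). Hk2, the regulated hexokinase of muscle and many tumours, ran the other way in the first comparison. It was at 55.6, 39.5 and 46.6 CPM in the CD43++ckit+ libraries, 4.77, 15.5 and 14.5 CPM in those of CD43+ckit- and 12.5, 34.9 and 32.2 CPM in those of CD43-ckit-. No CD43++ckit+ library overlapped another population, and the log2 differences were 2.03 ± 0.48 (adjusted p = 0.00998), 0.83 ± 0.47 (0.14) and -1.20 ± 0.48 (0.0612). With library totals the second was 1.69 (0.0174).

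Gpi1, the isomerase between the 2 hexose phosphates, was at 607 to 646 CPM in CD43++ckit+ and 302 to 435 CPM in CD43+ckit-, a log2 difference of 0.79 ± 0.26 (adjusted p = 0.0351). That call was lost when any 1 of 5 libraries was left out (adjusted p of 0.0538 to 0.109 on leaving out CD43++ckit+ library 1, 2 or 3 or CD43+ckit- library 1 or 3). Gpi1 in CD43-ckit- spread from 264 to 534 CPM. CD43++ckit+ was above it by 0.51 with TMM (0.0991) and by 1.38 with library totals (0.00368).

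Phosphofructokinase commits the sugar to glycolysis and is built of 3 kinds of subunit. Pfkm, the muscle-type subunit and a part of the red cell enzyme, was at 163, 174 and 153 CPM in the CD43++ckit+ libraries, 165, 153 and 141 CPM in those of CD43+ckit- and 32.8, 51.7 and 51.4 CPM in those of CD43-ckit-. CD43-ckit- stood alone below both others, at 1.85 ± 0.18 (adjusted p = 4.02e-05) and 1.76 ± 0.18 log2 units (0.000138), and the other two differed by 0.09 ± 0.17 (0.721). Pfkp, the platelet-type subunit, was at 163, 126 and 65.1 CPM in the CD43++ckit+ libraries, 23.4, 31.4 and 35.8 CPM in those of CD43+ckit- and 37.2, 40.9 and 40.7 CPM in those of CD43-ckit-. It was higher in CD43++ckit+ cells than in CD43+ckit- cells by 1.97 ± 0.30 (0.00131) and than in CD43-ckit- by 1.58 ± 0.30 (0.00146), with CD43++ckit+ library 3 the lowest of its population. Pfkl, the liver-type subunit and the other part of the red cell enzyme, was at 158, 150.3 and 104 CPM, at 66.5, 94.6 and 77.3 CPM, and at 121, 111 and 107 CPM in the 3 populations. Pfkl was higher in CD43++ckit+ cells than in CD43+ckit- cells by 0.79 ± 0.19 (0.00872). Its difference of -0.51 ± 0.19 between CD43+ckit- and CD43-ckit- (0.0446) turned to 0.15 with library totals (0.459), and the call was lost without any 1 of 7 libraries (0.0553 to 0.154). Between CD43++ckit+ and CD43-ckit- Pfkl differed by 0.28 with TMM (0.192) and by 1.19 with library totals (0.000194).

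The 4 Pfkfb genes encode enzymes that make and break fructose 2,6-bisphosphate, the strongest activator of phosphofructokinase. Pfkfb3, the form whose kinase activity most exceeds its phosphatase activity, was at 26.0, 19.8 and 18.3 CPM in the CD43++ckit+ libraries, 2.42, 5.70 and 5.22 CPM in those of CD43+ckit- and 11.8, 19.6 and 19.9 CPM in those of CD43-ckit-. CD43+ckit- was below both others without overlap, by 2.26 ± 0.35 log2 units from CD43++ckit+ (adjusted p = 0.00123) and at -1.94 ± 0.34 against CD43-ckit- (0.00183). Between CD43++ckit+ and CD43-ckit- the difference was 0.32 with TMM (0.397) and 1.19 with library totals (0.0192). Pfkfb2, the heart-type form, ran against it, with 48.9, 50.6 and 33.6 CPM in the CD43++ckit+ libraries, 130.5, 87.5 and 112 CPM in those of CD43+ckit- and 205, 112 and 106 CPM in those of CD43-ckit-. CD43++ckit+ lay below either other population (-1.31 ± 0.28, adjusted p = 0.00621, and -1.67 ± 0.29, 0.00081).

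Pfkfb1, the liver-type form, was low, at 1.41, 1.86 and 1.88 CPM in the CD43++ckit+ libraries, 5.45, 4.76 and 4.42 CPM in those of CD43+ckit- and 3.93, 2.95 and 3.37 CPM in those of CD43-ckit-. CD43++ckit+ lay below both others, with log2 differences of -1.51 ± 0.25 and -0.99 ± 0.25 (adjusted p = 0.00186 and 0.00689), the second of which was -0.06 with library totals (0.837). Between CD43+ckit- and CD43-ckit- it was 0.51 with TMM (0.108) and 1.17 with library totals (0.00365). Pfkfb4 was at 1.97 to 16.5, 3.97 to 12.5 and 9.58 to 37.4 CPM and passed in no comparison. Its highest CD43++ckit+ value was that of library 3, and without that library Pfkfb4 was lower in CD43++ckit+ cells than in CD43+ckit- cells (-1.97, adjusted p = 0.0372) and CD43-ckit- (-3.52, 0.00178). The neutrophil marker sum was also highest in library 3 of CD43++ckit+, at 5977 CPM. All tested genes were also fitted with the neutrophil marker mean as a covariate. Beyond that fit, the part of these markers in the Pfkfb4 values was not tested.

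From triose phosphate to pyruvate, 9 of 11 genes were tested. In CD43++ckit+ versus CD43+ckit-, 4 of them were called higher (Tpi1, Gapdh, Pgk1 and Pgam1) and Bpgm alone lower. Of all genes, 19.7% were higher and 20.1% lower. Aldolase A, which splits fructose 1,6-bisphosphate and is the aldolase of red cells and muscle, set CD43-ckit- apart. Aldoa was at 782, 669 and 564 CPM in the CD43++ckit+ libraries, 594, 690.4 and 568 CPM in those of CD43+ckit- and 2176, 1922 and 1906 CPM in those of CD43-ckit-. The first 2 ranges overlapped (0.12 ± 0.15, adjusted p = 0.581, and 0.38, 0.0364, with library totals), and CD43-ckit- was above both (-1.57 ± 0.16, 4.67e-05, and -1.70 ± 0.16, 9.05e-05). Aldoc, the brain-type aldolase, was at 7.46 to 21.1, 19.8 to 27.9 and 16.0 to 24.4 CPM and was called in no comparison. With library totals it was higher in CD43+ckit- cells than in CD43-ckit- cells (0.90, adjusted p = 0.0298).

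Tpi1 interconverts the 2 triose phosphates. It was at 453, 417 and 298 CPM in the CD43++ckit+ libraries, 111, 173 and 155 CPM in those of CD43+ckit- and 156, 228 and 229.5 CPM in those of CD43-ckit-. CD43++ckit+ was above both without overlap (1.41 ± 0.23, adjusted p = 0.00183, and 0.93 ± 0.23, 0.0064). Pgk1, which makes the first ATP of the pathway, was at 151 to 264 CPM in the CD43++ckit+ libraries, 47.0 to 71.6 CPM in those of CD43+ckit- and 48.3 to 119 CPM in those of CD43-ckit-. Its differences from CD43++ckit+ were 1.78 ± 0.35 (0.00413) and 1.20 ± 0.35 (0.0133). Gapdh, the dehydrogenase between them, was the most abundant of the genes per kilobase in CD43++ckit+. It was at 1408 to 1516, 1022 to 1236 and 1486 to 1791 CPM in the 3 populations. The difference of 0.41 ± 0.14 from CD43+ckit- (adjusted p = 0.0395) was lost without any 1 of 6 libraries (0.0574 to 0.138). With library totals Gapdh was higher in CD43++ckit+ cells than in CD43-ckit- cells (0.69, adjusted p = 0.00575), where TMM gave -0.21 ± 0.14 (0.189). Between CD43+ckit- and CD43-ckit- it was -0.62 ± 0.14 (0.00528) with TMM and 0.00857 (0.967) with library totals.

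Pgam1 and Bpgm encode related enzymes of 3-carbon phosphoglycerates: the mutase of glycolysis, and the synthase of 2,3-bisphosphoglycerate, which lowers the oxygen affinity of haemoglobin. Pgam1 was at 65.1, 53.6 and 43.3 CPM in the CD43++ckit+ libraries, 14.7, 24.2 and 19.6 CPM in those of CD43+ckit- and 21.9, 35.1 and 42.6 CPM in those of CD43-ckit-. It was higher in CD43++ckit+ cells than in CD43+ckit- cells by 1.47 ± 0.28 (adjusted p = 0.00321). Its other calls were close to the threshold, at 0.70 ± 0.27 (0.0454) and -0.77 ± 0.28 (0.0418), and without single libraries their adjusted p reached 0.138 and 0.148. The first was also lost with RLE size factors (0.172), and the second was -0.16 with library totals (0.671). Bpgm was at 50.8, 43.2 and 77.0 CPM in the CD43++ckit+ libraries, 381, 591 and 460.4 CPM in those of CD43+ckit- and 8300.4, 6499 and 5325 CPM in those of CD43-ckit-. No populations overlapped, and Bpgm had the smallest joint p of the 37 genes. The log2 differences were -3.07 ± 0.29 (adjusted p = 0.000326), -6.88 ± 0.34 (1.48e-06) and -3.81 ± 0.30 (4.22e-05), and the level in CD43-ckit- was 118 times that in CD43++ckit+. Per kilobase of exon Bpgm ranked 25, 5 and 2 in CD43++ckit+, CD43+ckit- and CD43-ckit-. As for Slc2a1, the erythroid marker sum moved in the same order, with 7 of its 9 genes not called between CD43+ckit- and CD43-ckit-. Its part in the difference was not tested.

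Enolase could not be described. The Eno1 row held 3 reads and the Eno2 row 4 reads over all 9 libraries, so neither was tested, and CD43-ckit- was listed at 0 in both. The related row Eno1b held 1 to 57 reads and Eno3 held 179 to 510 reads per library. Of the 50-base words of Eno1 in GENCODE M21, 74.0% occurred in no other gene. Eno1 encodes the enolase that nearly all cells use, so its row is not read as a level here.

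Pyruvate kinase makes the last ATP and has 2 genes. Pkm, which gives the M1 and M2 forms, was at 147, 115 and 251 CPM in the CD43++ckit+ libraries, 54.4, 179 and 131 CPM in those of CD43+ckit- and 493, 707 and 714 CPM in those of CD43-ckit-. The first 2 populations overlapped (0.50 ± 0.42, adjusted p = 0.392) and CD43-ckit- was above both (-1.90 ± 0.44, 0.00419, and -2.40 ± 0.44, 0.00242). With library totals the first of these was -0.99 (0.0882). The highest neutrophil, monocyte and macrophage, B-lineage and T and NK marker sums also lay in CD43-ckit- libraries. Unlike Pkm, the neutrophil and T and NK sums overlapped. CD43++ckit+ library 3 (5977 and 18.4 CPM) was above CD43-ckit- library 1 (3797 and 18.0 CPM). Within each population the neutrophil sum and Pkm ranked the libraries in the same order. In the CD43-ckit- libraries the neutrophil sum was 3797, 16166 and 16848 CPM, and the B-lineage sum 223, 84.8 and 107 CPM. Pkm kept both calls with the neutrophil marker mean as a covariate. Beyond that fit, the part of these markers in the Pkm difference was not tested. Pklr, which gives the liver and red cell forms, was at 205, 243 and 268 CPM in the CD43++ckit+ libraries, 322, 368 and 350.1 CPM in those of CD43+ckit- and 48.5, 83.6 and 109 CPM in those of CD43-ckit-. CD43-ckit- had the lowest Pklr, at 1.57 ± 0.26 (adjusted p = 0.000619) below CD43++ckit+ and 2.11 ± 0.26 (0.000349) below CD43+ckit-. The erythroid marker sum was highest in the same population. Of the annotated Pklr exons, 21.97% overlapped the neighbour Hcn3, and strand handling in the counting is not stated. Exon overlap with other genes was also 20.58% for Pgls, 19.52% for Pfkfb2, 17.92% for Rpe and 16.15% for Pdha1. It was 15.34% for Pkm, 13.57% for G6pdx, 11.48% for Gpi1 and 10.75% for Pfkm, and lower for the rest.

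Shared sequence limits other genes of these steps. The share of 50-base words found in no other GENCODE M21 gene was 46.1% for Pgk1, 63.8% for Pgam1, 74.2% for Pkm and 74.9% for Gapdh, beside 98.5% for Slc2a1 and 100% for Bpgm. How the authors' counting treated reads that fit several genes is not stated.

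**Figure D3:**
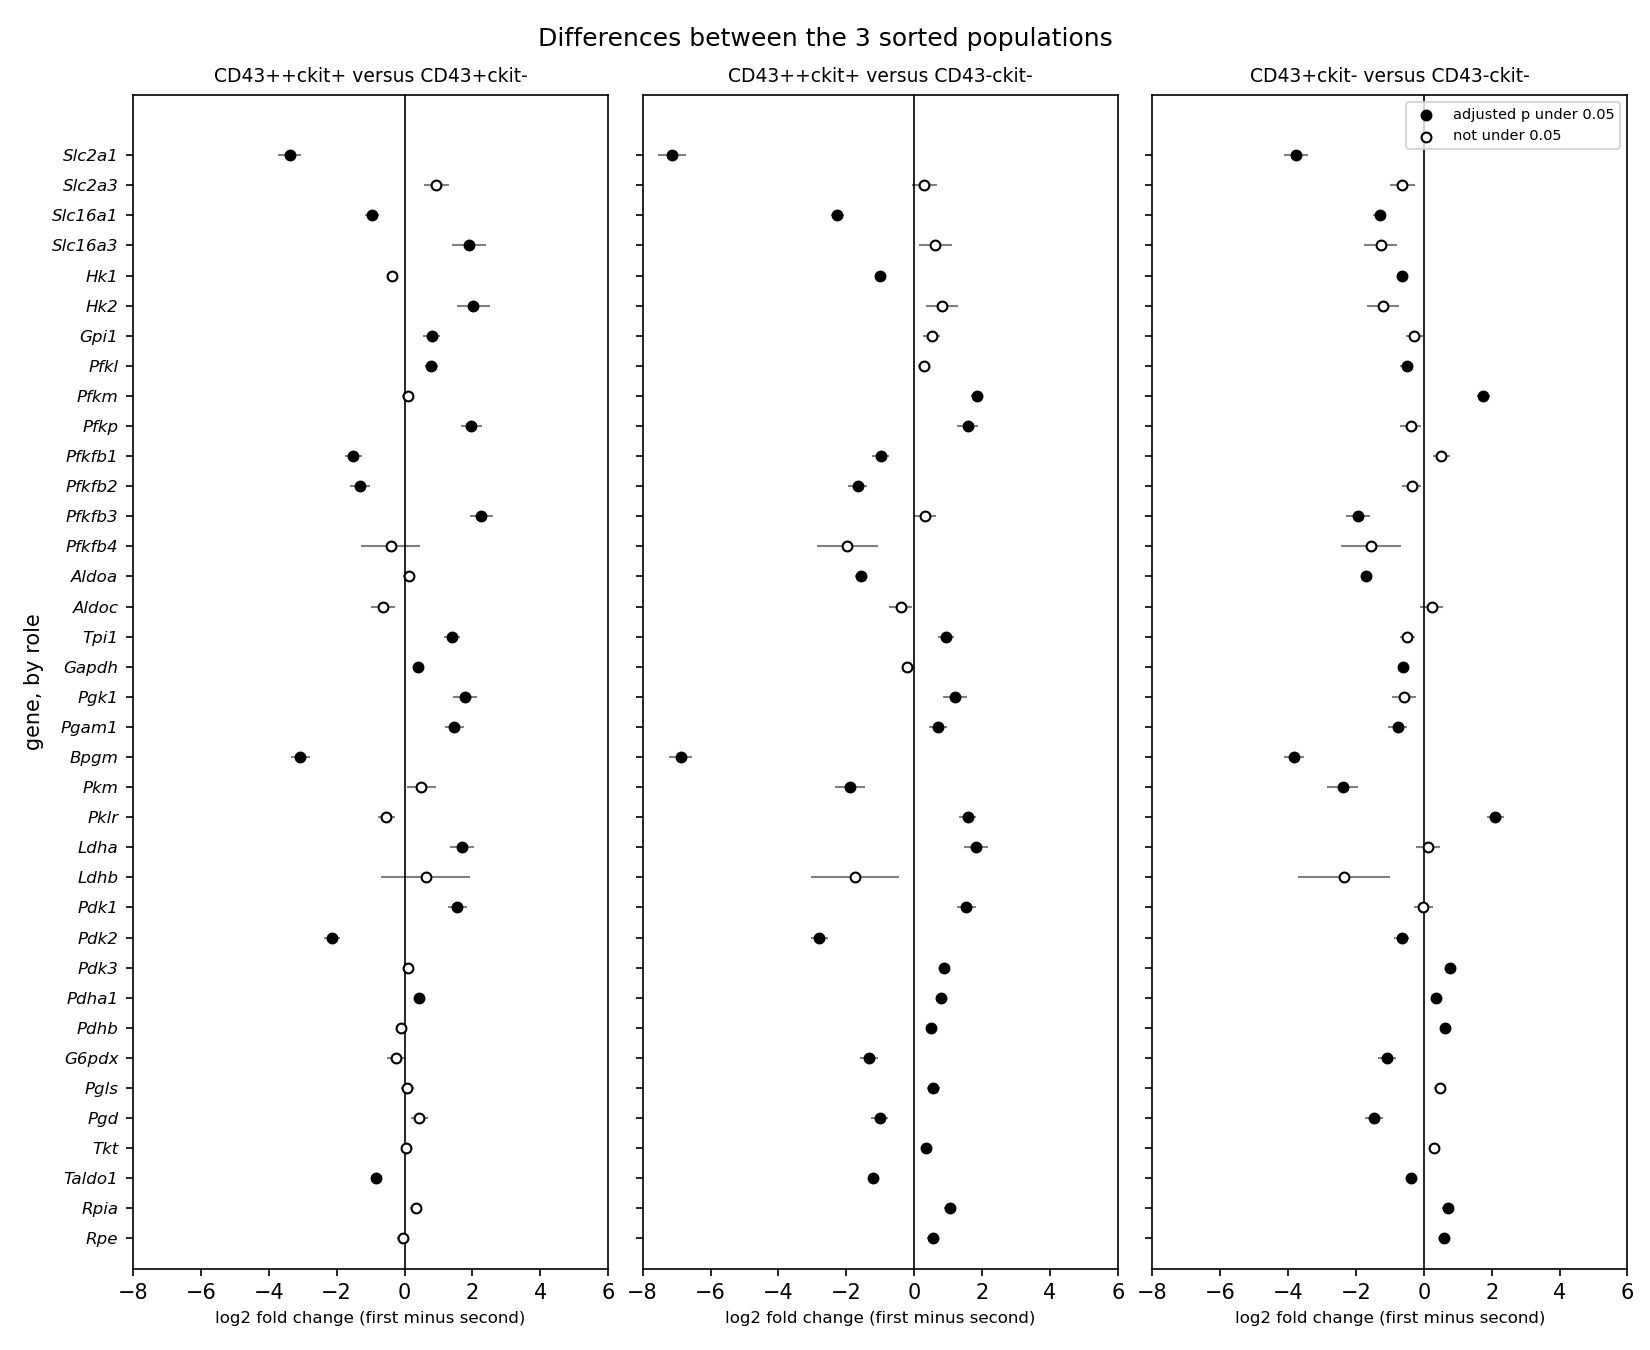
Log2 fold change (first-named population minus second) of the 37 tested genes in the 3 comparisons, by role, with standard errors as lines. Filled points had an adjusted p under 0.05. Slc2a1 and Bpgm lay below -3 in all 3 panels, and the other points lay between -3 and 3.

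Ldha turns pyruvate into lactate and restores NAD+. It was at 1021, 923 and 683 CPM in the CD43++ckit+ libraries, 185, 324 and 304 CPM in those of CD43+ckit- and 127, 297 and 321 CPM in those of CD43-ckit-. CD43++ckit+ stood above both others without overlap (1.69 ± 0.36, adjusted p = 0.00529, and 1.82 ± 0.36, 0.0017), and CD43+ckit- and CD43-ckit- overlapped (0.13 ± 0.35, 0.77). Per kilobase Ldha ranked 2, 9 and 11 in the 3 populations. Ldhb, the form of oxidative tissues, was at most 3.52 CPM. In CD43++ckit+ it had 3, 0 and 108 reads in libraries 1, 2 and 3, so library 3 alone set its level, and no comparison passed. Without that library Ldhb was lower in CD43++ckit+ cells than in CD43+ckit- cells (-3.62, adjusted p = 0.0145) and CD43-ckit- (-5.98, 0.000453), fitted values that rest on 3 reads and depend on the prior count.

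The promoters of Pgk1, Ldha and Pklr are shown because the first pair was higher in CD43++ckit+ than in both others and Pklr was lowest in CD43-ckit-. They are the 250 bases before a RefSeq transcript start (GRCm38.p6, 5′ to 3′ on the plus strand) and were picked after their values were seen. Capitals mark 4 motifs searched on both strands: the hypoxia response core ACGTG, the E-box CACGTG that contains it, the CACCC form CCNCNCCC that also takes in GC boxes, and the GATA form AGATAA. Pgk1 lies at chrX:106186850-106187099, Ldha at chr7:46845554-46845803 and Pklr at chr3:89135892-89136141.
Pgk1: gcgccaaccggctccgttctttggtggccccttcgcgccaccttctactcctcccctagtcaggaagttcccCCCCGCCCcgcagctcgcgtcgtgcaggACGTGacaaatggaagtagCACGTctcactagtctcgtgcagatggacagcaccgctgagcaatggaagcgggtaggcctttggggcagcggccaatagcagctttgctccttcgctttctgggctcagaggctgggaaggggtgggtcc
Ldha: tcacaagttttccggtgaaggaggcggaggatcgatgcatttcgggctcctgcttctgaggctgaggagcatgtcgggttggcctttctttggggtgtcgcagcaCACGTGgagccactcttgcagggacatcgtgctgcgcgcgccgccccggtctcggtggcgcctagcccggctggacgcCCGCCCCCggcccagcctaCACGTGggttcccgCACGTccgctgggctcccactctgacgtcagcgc
Pklr: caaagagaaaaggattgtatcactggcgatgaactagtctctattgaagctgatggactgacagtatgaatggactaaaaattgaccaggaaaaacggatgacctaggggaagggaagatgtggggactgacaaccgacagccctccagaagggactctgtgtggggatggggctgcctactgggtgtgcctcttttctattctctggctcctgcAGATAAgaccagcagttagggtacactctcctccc

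Pgk1 held 2 matches to ACGTG and 1 to CCNCNCCC. Ldha held 2 copies of CACGTG, whose palindrome counts once on each strand for ACGTG, a further ACGTG and 1 CCNCNCCC. Pklr held 1 AGATAA. Ldha and Pklr each have a further RefSeq window, not shown, that held 0 matches to the 4 motifs. RefSeq windows were found for 38 of the 39 genes, 59 windows in all. ACGTG was in 32.2% of the 59 and in 16.6% of 32851 windows of all genes. The shares were 10.2% and 6.02% for CACGTG, 72.9% and 45.9% for CCNCNCCC, and 11.9% and 9.99% for AGATAA. The window of Slc2a1 held 1 ACGTG and 2 CCNCNCCC and that of Bpgm 1 CCNCNCCC, and neither held AGATAA. A match describes letters only, and windows of 1 gene can overlap.

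The pyruvate dehydrogenase complex passes pyruvate to the citric acid cycle, and the Pdk kinases switch it off. The 3 kinases moved in different directions. Pdk1 was at 30.5, 33.6 and 16.9 CPM in the CD43++ckit+ libraries, 6.46, 10.1 and 10.96 CPM in those of CD43+ckit- and 8.48, 9.36 and 9.98 CPM in those of CD43-ckit-. It was higher in CD43++ckit+ than in the other two, by 1.56 ± 0.29 (adjusted p = 0.00287) and 1.54 ± 0.29 (0.00131). Pdk2 was at 30.7, 35.5 and 49.9 CPM in the CD43++ckit+ libraries, 177, 191 and 145 CPM in those of CD43+ckit- and 341, 235 and 227 CPM in those of CD43-ckit-. CD43++ckit+ lay below the other two, at -2.14 ± 0.23 (0.000406) and -2.79 ± 0.24 (1.9e-05). From CD43+ckit- to CD43-ckit- the difference was -0.65 ± 0.22 (0.0369) with TMM and 0.0238 (0.923) with library totals, and the call was lost under 8 of 19 alternatives. Pdk3 was at 92.9, 90.8 and 70.5 CPM, at 85.3, 72.1 and 80.5 CPM, and at 46.0, 46.3 and 46.9 CPM. It was lowest in CD43-ckit- (0.87 ± 0.13, 0.000431, and 0.77 ± 0.13, 0.00164).

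Both subunits of the first enzyme of the complex were lowest in CD43-ckit-. Pdha1 was at 49.3, 54.6 and 50.3 CPM in the CD43++ckit+ libraries, 36.6, 37.1 and 41.2 CPM in those of CD43+ckit- and 27.3, 32.5 and 28.9 CPM in those of CD43-ckit-, 3 ranges without overlap. Its log2 differences were 0.42 ± 0.12 (adjusted p = 0.0187), 0.80 ± 0.12 (0.000371) and 0.37 ± 0.12 (0.0274), of which the first was lost without CD43++ckit+ library 2 (0.0896) or CD43+ckit- library 1 or 2 (0.0686 and 0.0559), and the third under 9 of 19 alternatives, among them RLE size factors (0.26) and leaving out CD43+ckit- library 2 or 3 or CD43-ckit- library 3 (0.103, 0.0851 and 0.0597). Pdhb was at 98.6, 95.9 and 89.9 CPM, at 106, 98.4 and 102 CPM, and at 72.4, 61.1 and 67.0 CPM. CD43-ckit- was lower than CD43++ckit+ by 0.50 ± 0.11 (0.0027) and than CD43+ckit- by 0.61 ± 0.11 (0.00182). With the neutrophil covariate the first had adjusted p = 0.0527.

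Of the 7 pentose phosphate genes, 1 was called between CD43++ckit+ and CD43+ckit- (Taldo1), beside 39.8% of all genes. Against CD43-ckit-, CD43++ckit+ had 4 of 7 higher (Pgls, Tkt, Rpia and Rpe) and 3 lower (G6pdx, Pgd and Taldo1). Of all genes, 39.7% were higher and 27.7% lower in that comparison. The 2 dehydrogenases that make NADPH were highest in CD43-ckit-. G6pdx was at 63.3 to 114, 83.1 to 108 and 149 to 236 CPM, and its differences from CD43-ckit- were -1.33 ± 0.26 for CD43++ckit+ (adjusted p = 0.00175) and -1.07 ± 0.26 for CD43+ckit- (0.00833). Pgd was at 126 to 179.6, 72.5 to 137 and 225 to 343 CPM, with differences of -1.02 ± 0.26 (0.00707) and -1.46 ± 0.26 (0.00203). With library totals G6pdx lost both calls (-0.42, adjusted p = 0.27, and -0.46, 0.244) and Pgd the first (-0.12, 0.737). With the neutrophil marker mean as a covariate Pgd was at -0.37 in the first (0.196). The highest neutrophil, monocyte and macrophage and lymphoid marker sums also lay in CD43-ckit- libraries. The neutrophil and T and NK sums overlapped between CD43-ckit- and CD43++ckit+. In each population the library with the lowest neutrophil sum also had the lowest G6pdx and Pgd. Beyond the covariate fit, the part of these markers in the differences was not tested. Pgls, the lactonase between them, was at 67.4 to 84.1 CPM in the CD43-bearing populations and 39.1 to 66.4 CPM in CD43-ckit-. Its call against CD43++ckit+ (0.57 ± 0.18, 0.0224) was lost under 4 alternatives, among them DESeq2 (0.138) and RLE size factors (0.159). Against CD43+ckit- it was 0.48 with TMM (0.0543) and 1.09 with library totals (0.00488).

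In the reversible branch, the genes did not share a direction. Taldo1, transaldolase, was at 362, 369 and 397 CPM in the CD43++ckit+ libraries, 696, 702 and 623 CPM in those of CD43+ckit- and 936, 843 and 859 CPM in those of CD43-ckit-. The ranges were separate, at -0.84 ± 0.12 (adjusted p = 0.000806), -1.23 ± 0.12 (3.46e-05) and -0.38 ± 0.11 (0.0208), and the third was 0.27 with library totals (0.0757). That call was lost under 7 of 19 alternatives, with adjusted p up to 0.0954 on leaving out 1 library (CD43++ckit+ library 2 or CD43+ckit- library 1 or 3). Per kilobase it ranked 4, 2 and 5. Rpia, the isomerase that makes ribose 5-phosphate, ran the other way, with 109, 115 and 114 CPM in the CD43++ckit+ libraries, 76.2, 98.1 and 93.0 CPM in those of CD43+ckit- and 41.2, 60.9 and 60.5 CPM in those of CD43-ckit-. CD43-ckit- was lower than both (1.06 ± 0.17, 0.000543, and 0.72 ± 0.17, 0.00721). Without library 2 of CD43+ckit- the second had adjusted p = 0.0555.

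Tkt, transketolase, was at 878 to 942, 822 to 964 and 629 to 784 CPM, and its difference of 0.34 ± 0.13 between CD43++ckit+ and CD43-ckit- (adjusted p = 0.0413) was lost under 16 of 19 alternatives. Between CD43+ckit- and CD43-ckit- it was 0.30 with TMM (0.0784) and 0.93 with library totals (0.00176). Rpe, the epimerase, was at 27.8 to 36.5, 29.0 to 41.0 and 20.2 to 25.8 CPM. CD43-ckit- was lower by 0.55 ± 0.18 (0.0218) and 0.59 ± 0.18 (0.021), calls lost under 8 and 5 alternatives.

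CD43+ckit- and CD43-ckit- libraries of the same number deviated together from their group means (r = 0.576, 0.409 and 0.368). Libraries 2 and 3 did so across numbers as well (0.406 and 0.440), so these values cannot establish a pairing. The comparison of CD43+ckit- with CD43-ckit- was also fitted with the replicate number as a block. In a fit of only these 2 populations 6 genes were higher and 15 lower without the block, and 7 and 21 with it. With the block over all 9 libraries the counts were 8 and 14, beside 7 and 14 without it. In the fit of 2 populations the block added Slc2a3 (adjusted p = 0.000274), Hk2 (3.49e-10), Pfkp (0.012), Pfkfb4 (5.89e-14), Tpi1 (0.00486), Pgk1 (0.00194) and Slc16a3 (1.05e-12), all lower in CD43+ckit-, and Pgls (0.0137), which was higher, and Taldo1 lost its call (0.0545). Of these, only Hk2 (0.0479) and Pgls (0.0464) were also added with the block over all 9 libraries, where Pdk2 lost its call (0.0531). With the block, the fit of 2 populations leaves few degrees of freedom to estimate the spread. Its very small adjusted p-values are therefore not read as strong evidence. Ldhb was called lower in the fit of 2 populations both without the block (0.0077) and with it (9.63e-10), and Pdha1 was called in neither (0.108 and 0.0993). Library 1 had the lowest Hk2, Pgk1, Ldha and Slc16a3 levels of its population in both. It also had the lowest neutrophil marker sum in both, at 481 and 3797 CPM. Beyond the fit with the neutrophil marker mean as a covariate, the part of these markers in these values was not tested.

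Ratios of related genes within a library do not depend on the scaling. Of 12 pairs, 10 had ratios that did not overlap between CD43++ckit+ and CD43+ckit-, 11 between CD43++ckit+ and CD43-ckit-, and 7 between CD43+ckit- and CD43-ckit-. In the test of single genes, a different measure, 39.8%, 67.4% and 51.9% of all genes were called in either direction. The share of non-overlapping ratios among other pairs of genes was not computed. The counts of pairs are therefore not read as particular to related genes. With 3 libraries against 3, a two-sided exact permutation test cannot give a p below 0.1, and the smallest value adjusted over the 36 comparisons was 0.129.

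The Pkm to Pklr ratio changed sign between the populations. The log2 ratio of Pkm to Pklr counts was -1.08 to -0.09 in the CD43++ckit+ libraries, -2.57 to -1.05 in those of CD43+ckit- and 2.71 to 3.34 in those of CD43-ckit-, so Pklr held more reads in the CD43-bearing populations and Pkm in CD43-ckit-. Slc2a1 to Slc2a3 was -0.998 to 0.53, 3.52 to 4.15 and 6.33 to 8.05. Bpgm to Pgam1 was -0.36 to 0.83, 4.56 to 4.70 and 6.97 to 8.56. Slc16a1 to Slc16a3 was -0.16 to 0.73 in CD43++ckit+, where the 2 lactate carriers were about level in reads, and 2.46 to 3.93 and 2.17 to 4.57 in the others. Pdk1 to Pdk2 was -1.56 to -0.01 in CD43++ckit+ and -5.32 to -3.72 over the other two populations. Hk1 to Hk2 was lowest in CD43++ckit+, at 3.58 to 4.10, and was 5.80 to 7.53 and 5.12 to 7.005 in the others. Pfkm to Pfkp was highest in CD43+ckit- (1.98 to 2.82), beside 0.00 to 1.23 for CD43++ckit+ and -0.18 to 0.34 for CD43-ckit-. Pfkfb2 to Pfkfb3 was 0.88 to 1.36, 3.94 to 5.74 and 2.41 to 4.12 in the 3 populations.

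**Figure D4:**
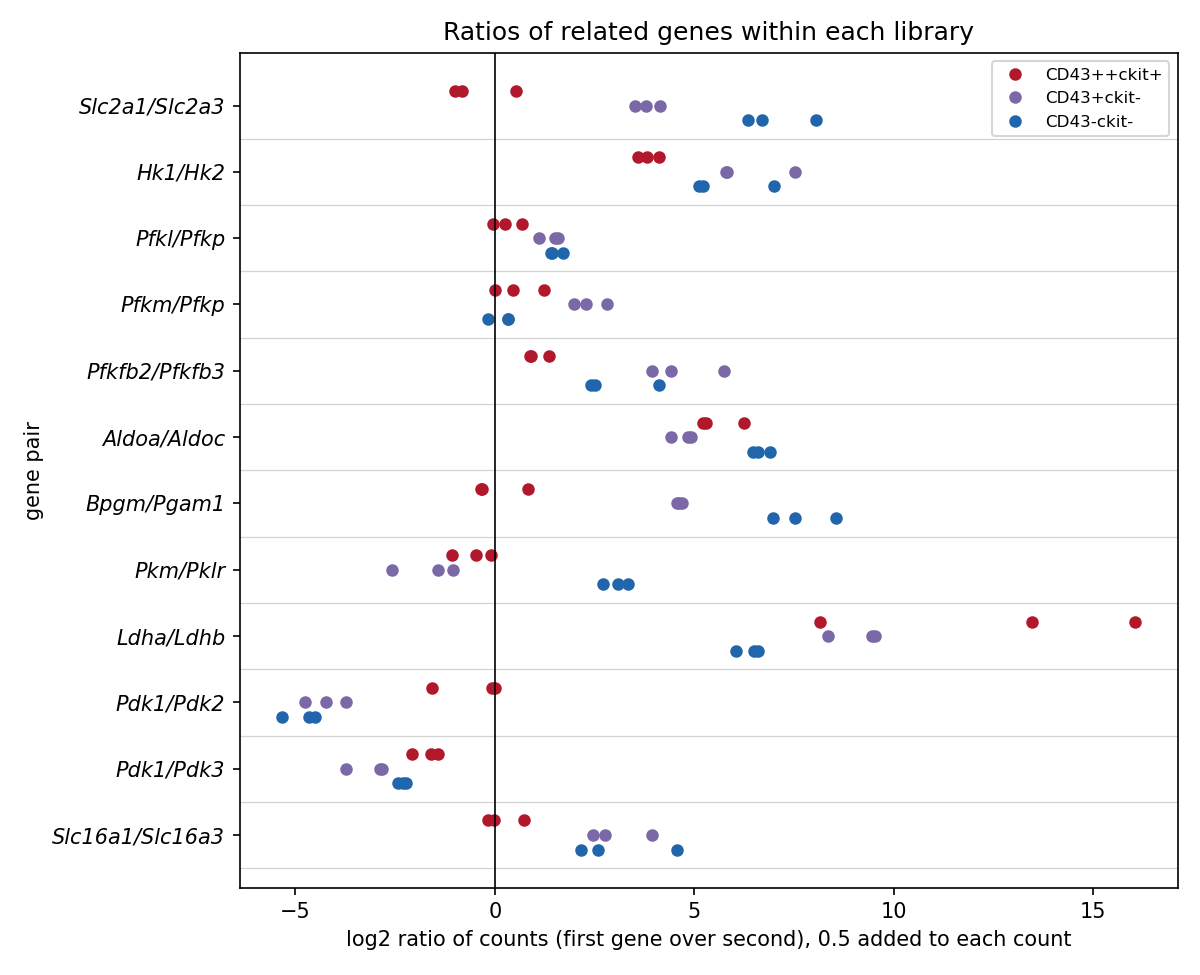
Log2 ratio of the counts of 12 pairs of related genes in each library, with 0.5 added to each count. Each point is 1 library, coloured by population. The Slc2a1 to Slc2a3 and Bpgm to Pgam1 ratios stood in 3 separate steps, and the Pkm to Pklr ratio was above 0 only in CD43-ckit-.

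A further 90 genes around these pathways were counted, of which 73 were tested. In CD43++ckit+ versus CD43+ckit-, 19 were higher and 18 lower, against CD43-ckit- 28 and 18, and in CD43+ckit- versus CD43-ckit- 15 and 16. The shares were 26.0% and 24.7%, 38.4% and 24.7%, and 20.5% and 21.9%, beside 19.7% and 20.1%, 39.7% and 27.7%, and 31.0% and 20.9% of all genes. These shares of all genes also stand beside the counts of each list below. With library totals the last 2 pairs of counts were 44 and 6, and 36 and 5. Of 10 tested genes of pyruvate entry and use, 7 were higher and 2 lower in CD43++ckit+ cells than in CD43-ckit- cells, and 5 were higher in CD43+ckit- cells than in CD43-ckit- cells. Dlat, the acetyltransferase of the pyruvate dehydrogenase complex, was at 65.9 to 76.5, 41.5 to 49.6 and 23.6 to 29.3 CPM (0.66 ± 0.13, 1.41 ± 0.13 and 0.75 ± 0.13, all called). Mpc2, a part of the mitochondrial pyruvate carrier, was lower in CD43++ckit+ than in either (-0.73 ± 0.13, adjusted p = 0.00269, and -1.08 ± 0.13, 0.000144), and the second was -0.14 with library totals (0.218).

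Of 10 tested hexosamine and polyol genes, 5 were higher and 2 lower in CD43++ckit+ cells than in CD43+ckit- cells, and 6 and 2 than in CD43-ckit-. Gfpt1, the first enzyme of hexosamine synthesis, was at 269, 226 and 120.4 CPM in CD43++ckit+ and at 32.3 to 45.6 CPM in all 6 other libraries (2.499 ± 0.27, adjusted p = 0.000406, and 2.30 ± 0.27, 0.000111). Among 9 tested genes beside the pentose phosphate pathway, 2 were higher and 1 lower, 5 and 1, and 3 and 3 in the 3 comparisons. Prps2, which turns ribose 5-phosphate into the nucleotide precursor PRPP, was at 43.5 to 69.6, 15.9 to 21.4 and 10.1 to 15.4 CPM (1.69 ± 0.23, 0.000753, and 2.15 ± 0.23, 6.96e-05). Of 14 tested gluconeogenesis and glycogen genes, the 3 comparisons called 4 higher and 1 lower, then 4 and 3, then 2 and 6. Pgm1, which links glycogen to glucose 6-phosphate, was higher in CD43++ckit+ (1.20 ± 0.19, 0.00136, and 1.53 ± 0.19, 0.00014).

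Of 14 tested isozymes outside the 39 genes, 1 was higher and 4 lower, 3 and 1, and 4 and 2. Hkdc1, a hexokinase-like gene, was at 10.9, 6.43 and 1.45 CPM in CD43++ckit+ and at most 0.47 CPM in the other 6 libraries. Of 16 tested regulators, 4 were higher and 7 lower in CD43++ckit+ cells than in CD43+ckit- cells, 3 and 9 than in CD43-ckit-, and 4 were lower in CD43+ckit- cells than in CD43-ckit- cells. Bsg, the chaperone that brings Slc16a1 to the cell surface, was at 358 to 434, 586 to 705 and 1556 to 1900.2 CPM (-0.72 ± 0.14, -2.11 ± 0.15 and -1.38 ± 0.14, all called). Txnip, which restrains glucose uptake, was at 275 to 423, 497 to 506 and 1183 to 1547 CPM, lower in CD43++ckit+ cells than in CD43-ckit- cells (-1.92 ± 0.18, adjusted p = 3.27e-05) and in CD43+ckit- than in CD43-ckit- (-1.43 ± 0.18, 0.000351). Klf1, an erythroid transcription factor that is also among the erythroid markers, was at 227 to 262, 467 to 677 and 658 to 923 CPM.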

How the data were processed

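Per the labels' protocols, libraries were made from total RNA of 9 sorted bone marrow samples (Illumina TruSeq). The authors deposited whole-number read counts per gene symbol, titled as HTSeq counts. Per the submitters' processing notes, the tools included TopHat2 2.0.4, CASAVA 1.8, HTSeq, edgeR and RSEM, with no role stated. Those notes name a human build while the symbols are mouse, so the true build is not given in the sources used here. In 27 rows the symbol had turned into a date. The test was that of edgeR 4.0.16 in R 4.3.3 (filterByExpr with minimum count 10 and minimum total 15, TMM, 3 group means over 9 libraries, robust quasi-likelihood fit, Benjamini-Hochberg over 12573 genes). The SE is the log2 difference over the square root of F. On data simulated for CD43++ckit+ versus CD43+ckit- the fit was tested before use. No 2 libraries of a population were alike within sampling noise (chi-square of their counts 15.2 to 117.5 times its degrees of freedom), so all were kept as separate samples.

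The members and gene lists were chosen with earlier results of these data known. All members may be named. Values per library are given for the 20 with the smallest joint p and for isozyme pairs, and each other list is represented by genes among its 4 smallest joint p-values. Same-numbered CD43+ckit- and CD43-ckit- libraries deviated together from their group means (r = 0.576, 0.409 and 0.368). For different numbers r was -0.510 to 0.440, so libraries 2 and 3 are not told apart. In their pairs with CD43++ckit+, r was -0.654 to 0.477 and -0.354 to 0.299 for the same number. It was -0.641 to 0.667 and -0.373 to 0.373 for different numbers, so the largest r of all joined libraries of different numbers. The numbers were taken to pair only CD43+ckit- and CD43-ckit-, a pairing that these values cannot establish. Alternatives were DESeq2 1.42.0, RLE size factors, library totals, other filters, fits of 2 populations, replicate blocks, a neutrophil covariate, and leaving out libraries. Lengths, overlaps and shared words come from GENCODE M21 (GRCm38), and promoters from RefSeq (GRCm38.p6).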

Additional observations from a re-analysis of the deposited data

How the results depend on the processing

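Under every alternative run, 16 of 20 called genes kept the call for CD43++ckit+ versus CD43+ckit-, 16 of 27 for CD43++ckit+ versus CD43-ckit- and 11 of 21 for CD43+ckit- versus CD43-ckit-. Of the uncalled genes, 12 of 17, 10 of 10 and 14 of 16 gained one under some alternative. With library totals 7 genes were lower in CD43++ckit+ cells than in CD43-ckit- cells (12 with TMM), and 11 were higher and 7 lower in CD43+ckit- cells than in CD43-ckit- cells (7 and 14). The same scaling turned CD43+ckit- versus CD43-ckit- for Hk1 (0.0204), Pfkl (0.15), Gapdh (0.00857), Pdk2 (0.0238) and Taldo1 (0.27), and CD43++ckit+ versus CD43-ckit- for Gapdh (0.69). With the 3 least correlated libraries left out, 12 genes were lower in CD43++ckit+ cells than in CD43+ckit- cells (7 with all), 22 were lower in CD43+ckit- cells than in CD43-ckit- cells (14), and 8557 of all genes differed between CD43++ckit+ and CD43+ckit- (5005). Ldhb then turned to -3.98 in the latter, and with 1 library left out it ranged from -3.62 to 1.41. The cause was not tested. Leaving out any 1 library gave 9 to 15 higher and 7 to 9 lower genes for CD43++ckit+ versus CD43+ckit-, 12 to 15 and 12 to 14 against CD43-ckit-, and 5 to 8 and 10 to 17 for CD43+ckit- versus CD43-ckit-. For the other pathway genes, whose alternatives were chosen after seeing the data, CD43++ckit+ versus CD43-ckit- gave 18 lower (30 with DESeq2, 28 with RLE size factors, 6 with library totals, 30 with the 3 libraries left out, and 28 without CD43++ckit+ library 3) and 28 higher (44 with library totals). CD43+ckit- versus CD43-ckit- gave 15 higher (36 with library totals) and 16 lower (5 with library totals, 8 with no filter, 25 with the 3 libraries left out and 25 with the replicate block in 2 populations). Leaving out CD43+ckit- library 1 or 3 or CD43-ckit- library 2 gave 9, 7 and 9. With library totals Mpc2 turned to 0.32 in this comparison, and Slc2a8 and Idnk, 2 further genes of these lists, turned to 0.65 and 0.87 in CD43++ckit+ versus CD43-ckit-.

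With the replicate block in a fit of only the 2 populations, CD43+ckit- versus CD43-ckit- had 7 genes higher and 21 lower (6 and 15 in that fit without it), and with the block over all 9 libraries 8 and 14. Low counts limit the values of Ldhb in CD43++ckit+ and of Pfkfb1.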
